A study of Mus musculus with 12 samples.

Results

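Complement is a set of plasma and tissue proteins that tag dead cells and microbes for removal. The genes followed here are 9 of the 21930 genes in the deposited count table, taken by name: *C1qa*, *C1qb* and *C1qc* (the chains of C1q), *C2*, *C4b*, *C3*, *Cfb*, *Serping1* and *C3ar1*. All 9 were in the table and passed the filter on low counts in each comparison. The study asked whether intermittent fasting (IF) protects the eye from sodium iodate (NaIO3), an oxidant that injures the retinal pigment epithelium (RPE) and, after it, photoreceptors. RNA-seq was done on male C57BL/6J mice, with n = 3 libraries in each of 4 groups. AL + PBS mice ate freely (ad libitum, AL) and received saline, and AL + NaIO3 mice ate freely and received a single intraperitoneal dose of 25 mg/kg NaIO3. IF + PBS and IF + NaIO3 mice received the same injections after 12 weeks of fasting on alternate days, 24 h without and 24 h with food, which started at 8 weeks of age and went on after the injection. Tissue was collected 7 days after injection. The labels name no transgene, and the model is an acute chemical injury in adult males.

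The pathway has 3 branches that meet at C3. In the classical branch C1q binds to antibody or to exposed cell debris. Of its partner proteases C1r and C1s, C1s cuts C4 and C2, whose fragments form an enzyme that cleaves C3. In the alternative branch factor B, the product of *Cfb*, joins C3b on a surface and forms another enzyme of that kind, while C1 inhibitor, the product of *Serping1*, holds C1r and C1s in check. In the retina microglia and macrophages are the main makers of C1q, and variation in complement genes is associated with age-related macular degeneration.

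Sequence upstream of the start site was available for 4 of the 9 genes from the RefSeq promoter set on GRCm38.p6. These are shown because *C1qb* and *C1qc* are neighbours on chromosome 4 whose levels followed each other, and because *C3* and *C3ar1* encode the precursor and the receptor of the C3a fragment. Each is written 5′ to 3′ on the minus strand, on which all 4 genes lie, and only the part before the span of the gene in the deposited table is given, which leaves out 151 of the 250 bases for *C1qc* and 4 for *C3ar1*. Capitals mark matches to any of 5 motifs searched on both strands in the 250 bases before the RefSeq start: GAAA, any 2 bases and GAAA (interferon response), TTCNNNGAA (STAT), GAGGAAGT (PU.1), TTGCNNAA (C/EBP) and GGG, any 2 bases and TTTCC (NF-kB).
*C1qb*, chr4:136886201-136886450: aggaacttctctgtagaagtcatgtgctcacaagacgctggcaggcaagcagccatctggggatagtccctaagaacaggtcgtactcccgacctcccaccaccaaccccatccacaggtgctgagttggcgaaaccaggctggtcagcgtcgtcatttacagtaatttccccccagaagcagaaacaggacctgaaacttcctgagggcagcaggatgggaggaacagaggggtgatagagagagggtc
*C1qc*, chr4:136893066-136893164: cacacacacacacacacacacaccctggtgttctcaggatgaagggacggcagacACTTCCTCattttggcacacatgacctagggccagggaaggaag
*C3*, chr17:57228137-57228386: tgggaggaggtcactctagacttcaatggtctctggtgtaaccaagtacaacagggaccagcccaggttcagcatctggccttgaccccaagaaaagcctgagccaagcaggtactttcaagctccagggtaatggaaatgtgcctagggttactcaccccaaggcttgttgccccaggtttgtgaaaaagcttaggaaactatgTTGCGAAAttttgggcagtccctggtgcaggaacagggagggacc
*C3ar1*, chr6:122856162-122856407: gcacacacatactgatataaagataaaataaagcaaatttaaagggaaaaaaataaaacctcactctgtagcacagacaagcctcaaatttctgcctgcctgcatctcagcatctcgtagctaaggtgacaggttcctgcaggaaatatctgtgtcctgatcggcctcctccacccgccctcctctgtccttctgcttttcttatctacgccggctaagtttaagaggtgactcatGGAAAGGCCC

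The interferon response letters occur in 2.98% and the STAT letters in 7.02% of 32851 promoter windows of 250 bases, and none of the 4 windows held either. The *C1qc* window held the PU.1 letters on the opposite strand, which occur in 2.44% of windows. The *C3* window held the C/EBP letters (9.56% of windows), and the *C3ar1* window held the NF-kB letters on the opposite strand (1.41% of windows). The *C1qb* window held none of the 5. A match is a string of letters only, and binding was not measured.

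Levels are given as counts relative to library size (CPM), scaled by edgeR's TMM factors, and, where genes are compared with each other, as the authors' FPKM, which also divides by gene length. Totals were between 26364665 and 43046950 counts per library. The labels give RPE, choroid and sclera as the tissue, and the study's methods name the eye cup. The summed CPM of 8 photoreceptor markers was between 18578 and 61278 in the 12 libraries, against 626 to 2278 for 8 RPE markers. AL + NaIO3 replicate 3 stood apart. Its sum of 6 choroid and sclera stroma markers was 1287 CPM, against 64.9 to 203.8 in the 11 other libraries, and its photoreceptor sum was the lowest of all 12. All 9 complement genes were highest in this library, a pattern that 39.2% of the 15612 genes tested between AL + NaIO3 and AL + PBS showed within that group. The main tests are therefore given with and without it. In bulk tissue, fewer cells of a type cannot be told apart from less RNA per cell.

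**Figure D1:**
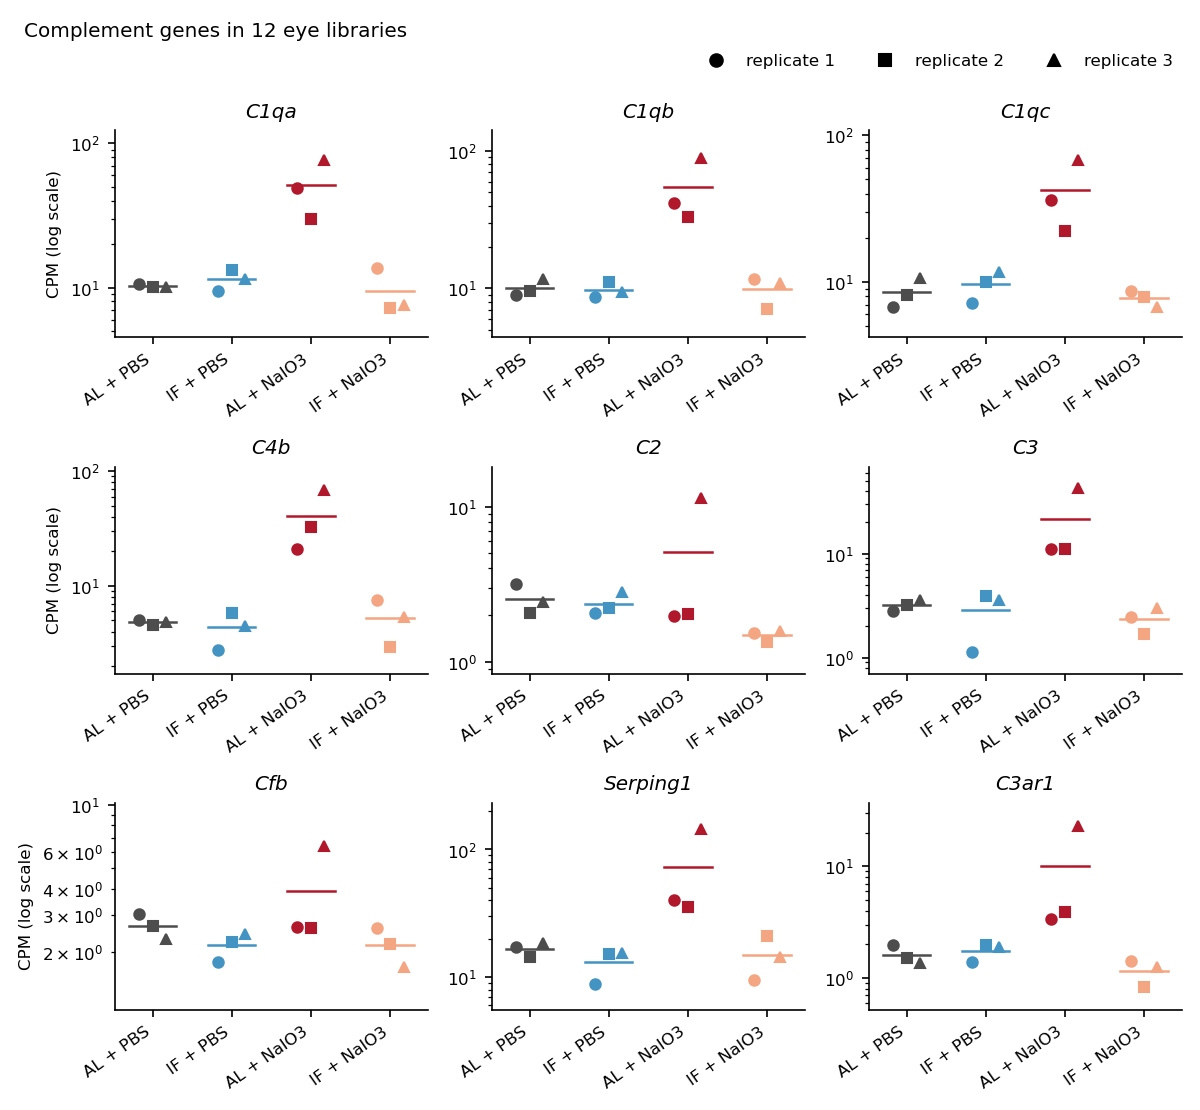
CPM (log scale) of each of the 9 genes by group, with a symbol for each of the 3 replicates and a line at the group mean. In 7 genes every AL + NaIO3 library lies above every AL + PBS library, whereas in *C2* and *Cfb* replicates 1 and 2 lie at or just below the level of the controls.

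*C1qa*, *C1qb* and *C1qc* lie side by side (GRCm38 chr4:136895917-136898803, chr4:136880129-136886187 and chr4:136889804-136893065). In AL + PBS mice *C1qa* had 10.7, 10.2 and 10.1 CPM in replicates 1 to 3, and in AL + NaIO3 mice it had 48.6, 29.7 and 76.8 CPM. The lowest injured library was thus well above the highest control. In IF + NaIO3 mice *C1qa* had 13.7, 7.22 and 7.55 CPM, which overlapped the 9.50, 13.3 and 11.4 CPM of IF + PBS mice. The log2 fold change of *C1qa* was 2.34 (standard error 0.32) in AL + NaIO3 against AL + PBS and -2.46 (standard error 0.39) in IF + NaIO3 against AL + NaIO3.

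*C1qb* had 8.93, 9.56 and 11.8 CPM in AL + PBS and 42.2, 33.2 and 88.5 CPM in AL + NaIO3. Its IF + NaIO3 libraries, at 11.8, 7.03 and 10.9 CPM, overlapped those of IF + PBS, at 8.66, 11.1 and 9.35 CPM. The log2 fold changes of *C1qb* were 2.45 (standard error 0.37) and -2.48 (standard error 0.39) in the same comparisons. *C1qc*, which encodes the last of the 3 chains, had 6.76, 8.15 and 10.6 CPM in AL + PBS and 36.3, 22.2 and 67.6 CPM in AL + NaIO3. It had 7.16, 9.99 and 11.6 CPM in IF + PBS and 8.64, 7.88 and 6.69 CPM in IF + NaIO3, so once more AL + NaIO3 alone did not overlap the other groups. Its log2 fold changes were 2.32 (standard error 0.40) and -2.46 (standard error 0.38).

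The 3 chains kept nearly the same proportions throughout. *C1qa* made up between 31.8% and 42.6% of the summed C1q FPKM over the 12 libraries, *C1qb* between 29.4% and 43.8% and *C1qc* between 23.0% and 33.0%, while the sum itself ran from 15.3 to 201.5 FPKM. In AL + NaIO3 the shares were 37.4% ± 2.77, 37.1% ± 3.18 and 25.5% ± 1.496 (SD, n = 3), and in AL + PBS 38.0% ± 4.79, 35.2% ± 1.496 and 26.8% ± 3.38, which overlap for each chain. A C1q molecule contains equal numbers of the 3 chains.

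C1q was compared with macrophage markers in the same libraries. The summed CPM of 15 microglia and macrophage markers, such as *Csf1r*, *Trem2* and *Tyrobp*, was between 122.8 and 357.6 in AL + NaIO3 and between 77.2 and 92.7 in the other 9 libraries. Of these 15 markers, 11 had all 3 AL + NaIO3 libraries above all AL + PBS libraries, and none was at 0 throughout. Divided by this sum, C1q was 0.691 ± 0.0393 in AL + NaIO3 (SD, n = 3), against 0.339 ± 0.0457 in AL + PBS, 0.365 ± 0.0326 in IF + PBS and 0.300 ± 0.0637 in IF + NaIO3. The lowest AL + NaIO3 library, at 0.651, lay above the highest of the other 9, at 0.392. *Csf1r*, with 21.5 CPM in AL + PBS and 39.9 in AL + NaIO3, differed less between the groups than C1q. In group means other markers of the list differed more than *C1qa*, such as *Trem2* (1.73 against 10.97 CPM), *Cd68* (2.10 against 14.9), *Adgre1* (1.15 against 9.39) and *Ptprc* (1.01 against 10.4). AL + NaIO3 replicate 3 had 21.7, 31.0, 22.9 and 21.9 CPM of these markers. Replicates 1 and 2 had 6.26 and 4.98 CPM of *Trem2*, 6.42 and 7.18 of *Cd68*, 1.99 and 3.24 of *Adgre1*, and 4.39 and 4.84 of *Ptprc*. Without replicate 3, of these markers only *Ptprc* still differed more than *C1qa*. *Aif1* of the list also differed more, with or without replicate 3, at 1.12, 1.14 and 0.558 CPM in AL + NaIO3. Its level in AL + PBS was low, between 0.0945 and 0.131 CPM. The ratio thus depends on the markers chosen. It was formed after the levels had been seen and was not tested.

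**Figure D2:**
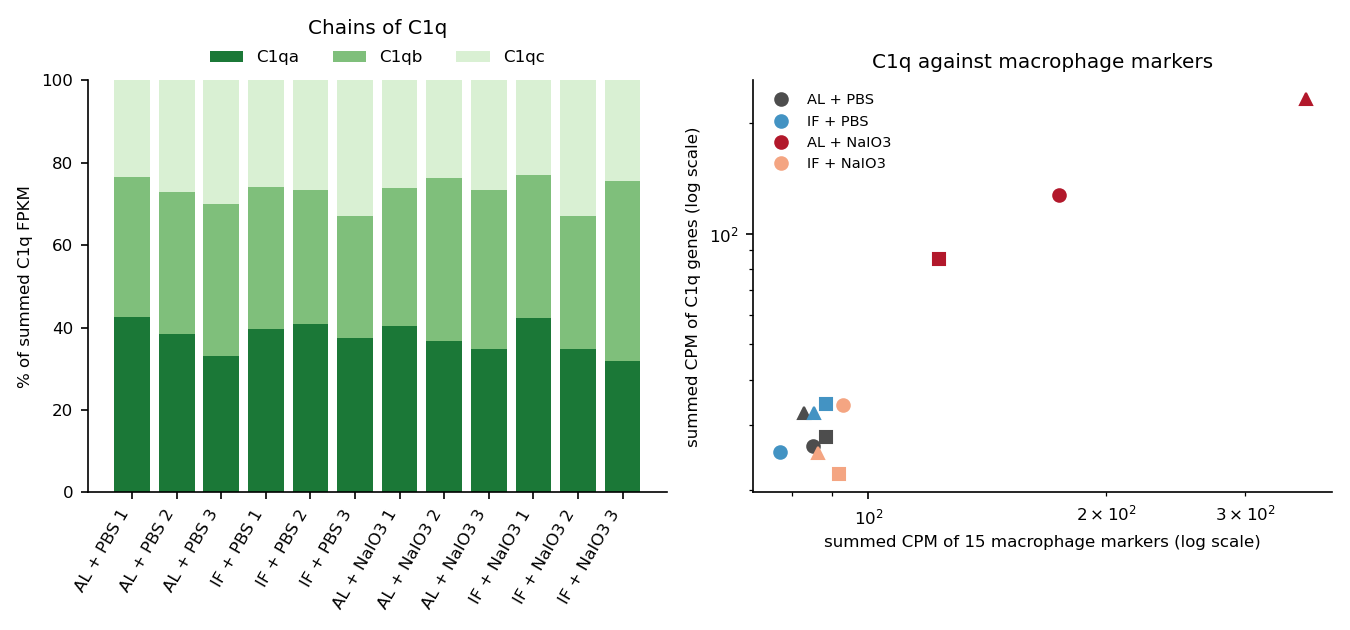
Left, share (%) of each chain in the summed C1q FPKM of each library. Right, summed CPM of the 3 C1q genes against summed CPM of 15 microglia and macrophage markers, both on log scales, with circles, squares and triangles for replicates 1, 2 and 3. The shares stay similar in all libraries, and the 3 AL + NaIO3 libraries lie apart on both axes of the right panel.

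Downstream of C1q, *C4b* and *C2* differed from each other. *C4b* (chr17:34728380-34743882), which encodes complement C4, had 5.03, 4.58 and 4.83 CPM in AL + PBS and 20.8, 32.6 and 68.4 CPM in AL + NaIO3. Its log2 fold change of 3.09 (standard error 0.42) was the largest among the 9 genes. In IF + NaIO3 it had 7.55, 2.95 and 5.41 CPM, around the 2.76, 5.84 and 4.44 CPM of IF + PBS, and its log2 fold change against AL + NaIO3 was -2.95 (standard error 0.50). The mouse genome holds a near-identical copy, *C4a*, which was not analysed here, so reads of the 2 genes may have been split and the level of *C4b* is uncertain.

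*C2* (chr17:34862604-34898265), whose product joins C4b in the classical convertase, had 3.17, 2.05 and 2.43 CPM in AL + PBS but 1.99, 2.03 and 11.3 CPM in AL + NaIO3. Only replicate 3 was above the controls, and in CPM the other 2 libraries were just below all of them. In FPKM, at 1.05 and 1.17, these 2 lay within the AL + PBS range of 0.963 to 1.22. The IF + PBS libraries had 2.05, 2.22 and 2.83 CPM, and the IF + NaIO3 libraries, at 1.55, 1.35 and 1.59 CPM, lay below each library of the 3 other groups. The log2 fold change of *C2* was 1.02 (standard error 0.69) in AL + NaIO3 against AL + PBS and -0.34 when replicate 3 was left out. Its span overlaps *Zbtb12*, which had 135 to 210 counts, and *Gm20547*, so its count is uncertain.

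*C3* (chr17:57203970-57228136), the component at which all branches meet, had 2.82, 3.21 and 3.58 CPM in AL + PBS and 11.04, 11.09 and 43.2 CPM in AL + NaIO3. Replicates 1 and 2 were 3.45 and 3.46 times the AL + PBS mean and replicate 3 was 13.5 times. In IF + NaIO3 it had 2.47, 1.68 and 2.98 CPM, and in IF + PBS 1.12, 3.95 and 3.60 CPM. The log2 fold change of *C3* was 2.78 (standard error 0.56) in AL + NaIO3 against AL + PBS and -3.22 (standard error 0.59) in IF + NaIO3 against AL + NaIO3. *Cfb* (chr17:34856374-34862518), the alternative pathway partner of C3b, ends 85 bases from *C2*. It had 3.04, 2.64 and 2.30 CPM in AL + PBS and 2.63, 2.60 and 6.40 CPM in AL + NaIO3. Its IF + PBS libraries had 1.80, 2.22 and 2.42 CPM and its IF + NaIO3 libraries 2.61, 2.18 and 1.70 CPM. Replicates 1 and 2 of AL + NaIO3 lay within the range of AL + PBS and, in CPM, above all 3 IF + PBS libraries. In FPKM, at 0.833 and 0.926, they were again within AL + PBS but below IF + PBS replicate 3 (0.990). Its log2 fold change in AL + NaIO3 against AL + PBS was 0.56 (standard error 0.44) with replicate 3 and -0.03 without it. The span of *Cfb* overlaps *Gm20547* over 6107 bases, so its count is uncertain too, although *Gm20547* had at most 21 counts.

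*Serping1* (chr2:84765387-84775444), the inhibitor of the first step, had 17.2, 14.5 and 18.5 CPM in AL + PBS and 40.1, 35.2 and 145.0 CPM in AL + NaIO3. It had 8.89, 15.1 and 15.5 CPM in IF + PBS and 9.58, 21.0 and 14.4 CPM in IF + NaIO3. Its log2 fold change was 2.15 (standard error 0.53) in AL + NaIO3 against AL + PBS and -2.31 (standard error 0.57) in IF + NaIO3 against AL + NaIO3. AL + NaIO3 was again the highest group and the other 3 overlapped. Its FPKM divided by the C1q sum was 0.367 ± 0.0407 in AL + PBS and 0.290 ± 0.110 in AL + NaIO3 (SD, n = 3). These 2 groups overlapped, at 0.328 to 0.409 and 0.198 to 0.411. The ratio was 0.268 ± 0.0414 in IF + PBS and 0.383 ± 0.217 in IF + NaIO3, and was not tested. *C3ar1* (chr6:122847138-122856161), the receptor for C3a on myeloid cells, had the lowest FPKM of the 9 in AL + PBS. It had 1.95, 1.51 and 1.35 CPM in AL + PBS and 3.37, 3.88 and 23.2 CPM in AL + NaIO3, so that replicate 3 was 6.41 times the mean of the other 2. In IF + PBS *C3ar1* had 1.38, 1.96 and 1.89 CPM and in IF + NaIO3 1.41, 0.827 and 1.25 CPM. Its log2 fold changes were 2.68 (standard error 0.77) and -3.15 (standard error 0.79).

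Per length, the C1q genes and *Serping1* were the highest of the 9. In AL + PBS *C1qa* (8.11 ± 0.299 FPKM), *Serping1* (7.87 ± 1.03), *C1qb* (7.60 ± 1.15) and *C1qc* (5.82 ± 1.34) overlapped each with the next. *C2* (1.07 ± 0.135) and *Cfb* (1.00 ± 0.254) came next and overlapped too, as did *Cfb* and *C4b* (0.777 ± 0.0336). *C3* (0.510 ± 0.0625) and *C3ar1* (0.305 ± 0.0609) were each separate from the gene above. In AL + NaIO3 *C4b* (7.68 ± 4.24 FPKM) and *C3* (3.86 ± 3.60) came before *C2* (2.21 ± 1.91), with overlap from *C4b* down to *Cfb* (1.33 ± 0.786). FPKM per CPM varied between libraries by up to 1.59 times for *C4b*, 1.51 times for *Cfb* and 1.497 times for *C2*, against 1.25 to 1.29 times for the other 6.

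**Figure D3:**
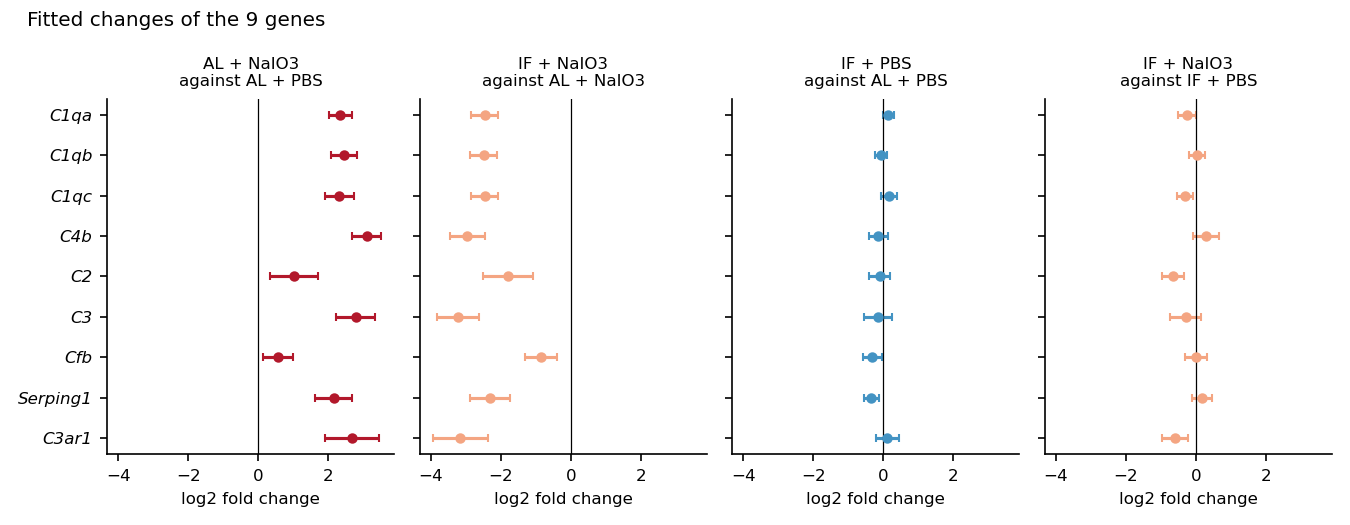
Log2 fold change (point) and standard error (bar) of the 9 genes from edgeR in each comparison of 2 groups of 3 libraries. Values lie above 0 in AL + NaIO3 against AL + PBS and below 0 in IF + NaIO3 against AL + NaIO3, and between -0.66 and 0.29 in the other 2 comparisons.

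How far NaIO3 changed these genes under free feeding was tested in AL + NaIO3 against AL + PBS. All 9 had a positive log2 fold change, with a median of 2.34 against 0.01 over the 15612 genes tested, and in 7 the groups did not overlap, which held for 9.67% of all genes in this direction. A gene counted as called where it had a fold of 1.5 or more and an adjusted p below 0.05. On this rule edgeR's quasi-likelihood test called 0 of the 9, beside 0.0512% of all genes called higher. The adjusted p from edgeR was 0.0672 for *C1qa* and *C4b*, 0.0968 for *C1qb*, 0.124 for *C1qc*, 0.193 for *C3*, 0.260 for *Serping1* and 0.306 for *C3ar1*, and 0.651 and 0.698 for *C2* and *Cfb*. Unadjusted, 7 of the 9 had a p under 0.05, against 7.51% of genes that were higher at that level.

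The calls differed between fits. DESeq2 called 7 genes higher, all but *C2* and *Cfb*, where it called 2.37% of genes higher, with adjusted p between 7.23e-12 for *C4b* and 0.00670 for *C3ar1*. A fit of all 12 libraries in edgeR called 6 higher (0.952% of genes), among them *Serping1* at an adjusted p of 0.0499 but not *C3ar1* at 0.0626. Without AL + NaIO3 replicate 3, edgeR also called 6 (0.394% of genes): *C1qa* (log2 fold change 1.93), *C1qb* (1.90), *C1qc* (1.78), *C4b* (2.47), *C3* (1.79) and *Serping1* (1.17), with adjusted p from edgeR between 0.00347 and 0.0233. Without replicate 1 it called *C4b* alone (0.0503% of all genes were called higher), without replicate 2 *C1qa* alone (0.0253%), and leaving out any single AL + PBS library gave 0 (0% of all genes).

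**Figure D4:**
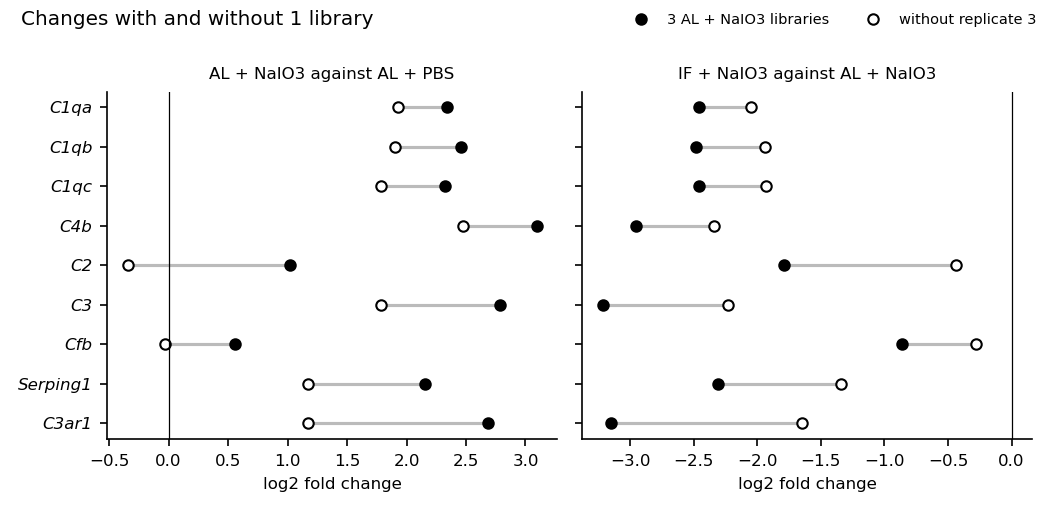
Log2 fold change of the 9 genes with all 3 AL + NaIO3 libraries (filled) and without AL + NaIO3 replicate 3 (open). The values of 7 genes move toward 0 and stay beyond 1, whereas *C2* and *Cfb* move to -0.34 and -0.03 in AL + NaIO3 against AL + PBS.

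Whether fasting changed the response was tested in IF + NaIO3 against AL + NaIO3, which shares the AL + NaIO3 libraries with the comparison above. All 9 log2 fold changes were negative, with a median of -2.46 against -0.01 over 15648 genes, and in all but *Cfb* the groups did not overlap, as in 10.1% of genes in this direction. Here too edgeR called 0 of the 9 (0.0383% of genes were called lower), with 8 of the 9 at an unadjusted p under 0.05 against 8.22% of genes. Without AL + NaIO3 replicate 3 this was 7 of the 9, against 5.93% of genes, and *C2* was no longer among them. The adjusted p from edgeR was 0.104 for each C1q chain, 0.119 for *C4b*, 0.153 for *C3*, 0.234 for *Serping1*, 0.236 for *C3ar1*, 0.388 for *C2* and 0.505 for *Cfb*. The C1q chains were 5.50, 5.58 and 5.49 times lower in IF + NaIO3, *C4b* 7.75 times, *C3* 9.30 times and *C3ar1* 8.88 times.

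DESeq2, the test that the study's methods name for this comparison, called the same 7 genes lower (2.72% of genes), with adjusted p between 1.47e-08 for *C1qb* and 0.0450 for *Serping1*. The fit of 12 libraries called 7 as well (1.06% of genes), with adjusted p from edgeR between 0.00434 and 0.0350. Without AL + NaIO3 replicate 3, edgeR called *C1qa*, *C1qb*, *C1qc*, *C4b* and *C3* (0.445% of genes), with log2 fold changes between -2.34 and -1.93, while *Serping1* had -1.34 (adjusted p = 0.101) and *C3ar1* -1.65 (adjusted p = 0.165 from edgeR). *C2* went from -1.79 to -0.43 and *Cfb* from -0.86 to -0.28. Leaving out any other single library gave 0 (0% to 0.0125% of all genes were called lower).

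Without NaIO3 the differences between diets were small beside the spread. In IF + PBS against AL + PBS the log2 fold changes were between -0.34 (*Serping1*) and 0.17 (*C1qc*), 3 above 0 and 6 below, and the groups overlapped for each gene, whereas 10.6% of the 15361 genes did not overlap in the higher and 11.2% in the lower direction. None of the 9 was called by edgeR (0% of genes), by DESeq2 (1.33% of genes in either direction) or in the fit of 12 libraries (0%), and 0 had an unadjusted p under 0.05, against 8.22% of genes that were higher and 8.85% that were lower at that level. The adjusted p from edgeR ran from 0.422 to 0.895. In IF + NaIO3 against IF + PBS, which asks what NaIO3 did under fasting, the log2 fold changes were between -0.66 (*C2*, standard error 0.31, adjusted p = 0.349 from edgeR) and 0.29 (*C4b*). Again 0 were called by edgeR (0% of 15305 genes) or had an unadjusted p under 0.05 (8.47% of genes higher and 6.72% lower), and DESeq2 called none (0.723% of genes) but gave an adjusted p for 1 of the 9 only. *C2* was the single gene whose groups did not overlap, against 10.9% of genes that were lower in this way and 10.1% higher. In FPKM *C3ar1* was also without overlap. A p that misses the threshold does not show that fasted mice did not respond.

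The difference between the effect of NaIO3 under fasting and under free feeding was tested as an interaction on the 12 libraries. It was negative for all 9 genes, from -0.53 in *Cfb* to -3.25 in *C3ar1*, with a median of -2.59 against -0.02 over 15970 genes. At an adjusted p under 0.05 edgeR called 0 (0.0188% of genes were called in the lower direction), with 7 at an unadjusted p under 0.05 in the lower direction against 6.88% of genes. The smallest adjusted p from edgeR were 0.0787 for *C1qa* (-2.59, standard error 0.44), 0.0893 for *C1qc* (-2.61, standard error 0.47) and 0.0938 for *C1qb* (-2.41, standard error 0.44). DESeq2 called 5, the C1q chains, *C4b* and *C3* (1.02% of genes), and gave no adjusted p for *C3ar1*. Without AL + NaIO3 replicate 3, edgeR called the 3 C1q chains (0.143% of genes), at differences of -2.19, -1.87 and -2.09 and adjusted p from edgeR between 0.0189 and 0.0263. It also called these 3 without AL + NaIO3 replicate 2 (0.0805% of all genes were called lower) and *C1qa* alone without IF + NaIO3 replicate 1 (0.0308%). Without AL + NaIO3 replicate 1 it called 6, with *C4b*, *C3* and *C3ar1* added, and more genes overall (1.26%).

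A wider list of 50 complement genes showed which other parts of the pathway were expressed. Of these, 49 were in the table and 9 had at most 3 counts in any library, among them *Hc* and *C9* of the membrane attack complex and the mannose-binding lectins *Mbl1* and *Mbl2*. The sum of 5 hepatocyte markers was between 0 and 1.14 CPM, with *Serpina1a* and *Fgb* at 0 throughout. In AL + NaIO3 against AL + PBS 30 were tested, 24 with a positive log2 fold change, and the median was 0.75. Without AL + NaIO3 replicate 3 the median was 0.37, with 23 of 31 positive, 6 higher and 2 lower at an unadjusted p under 0.05, beside 6.80% and 5.42% of all genes, and 0 called (0.394% of all genes were called higher). With all libraries edgeR called 0 (0.0512% of all genes were called higher) and 10 were higher and 0 lower at an unadjusted p under 0.05, beside 7.51% of all genes that were higher at that level. DESeq2 called 4 (2.37% of all genes) and the fit of 12 libraries called 2 (0.952%). In IF + NaIO3 against AL + NaIO3 24 of 30 were negative, with a median of -0.73, which was -0.33 without replicate 3 (20 of 29 negative, with *Clu* called, beside 0.445% of all genes called lower). With all libraries edgeR called 0 (0.0383% of all genes were called lower), DESeq2 5 (2.72%) and the fit of 12 libraries 2 (1.06%), with 9 lower and 1 higher at an unadjusted p under 0.05, beside 8.22% of all genes that were lower at that level. In the other 2 comparisons and the interaction edgeR called 0 as well. Of 25 genes tested in IF + PBS against AL + PBS, 2 were higher and 3 lower at an unadjusted p under 0.05, beside 8.22% and 8.85% of all genes. Of 26 tested in IF + NaIO3 against IF + PBS, 1 was higher and 1 lower, beside 8.47% and 6.72%. In the interaction 25 of 32 were negative and 0 were higher and 8 lower at that level, beside 5.08% and 6.88%. Without AL + NaIO3 replicate 3 it was negative for 19 of 33, with 5 lower at that level, beside 5.41% of all genes, and *Clu* called (0.143%).

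The partner proteases of C1q are given first. *C1rb*, with the largest log2 fold change of its role (2.28, adjusted p = 0.431 from edgeR, and 0.87 without replicate 3), had 0.417, 0.356 and 2.26 CPM in AL + NaIO3 and 0.209 ± 0.0714 CPM in AL + PBS (SD, n = 3), and it is a close copy of *C1ra*, so its reads are uncertain. *C1ra* had 5.07, 5.23 and 21.98 CPM in AL + NaIO3 against 2.83 ± 0.361 in AL + PBS. DESeq2 called *C1ra* here and in IF + NaIO3 against AL + NaIO3 (log2 fold change 1.95 and -2.36, adjusted p = 0.0242 and 0.00570). Without replicate 3 the values from edgeR were 0.86 and -1.29. *C1s1*, which encodes the protease that cuts C4 and C2, had 6.03, 4.09 and 38.6 CPM against 4.62 ± 1.15, so replicates 1 and 2 were 1.30 and 0.885 times the control mean. Among receptors *Itgax*, a chain of complement receptor 4, had the largest value (3.93, adjusted p = 0.277 from edgeR, and 1.99 without replicate 3), with 1.76, 1.99 and 17.6 CPM in AL + NaIO3 and 0.477 ± 0.233 in AL + PBS. *Itgb2*, the chain shared by complement receptors 3 and 4, had 4.78, 3.91 and 22.1 CPM against 1.02 ± 0.488 (log2 fold change 3.34, adjusted p = 0.242 from edgeR and 0.000112 from DESeq2, and 2.08 without replicate 3).

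Among soluble regulators *Cfi*, the protease that cuts C3b, had 1.96, 2.45 and 10.9 CPM in AL + NaIO3 and 1.58 ± 0.0290 in AL + PBS (log2 fold change 1.71, adjusted p = 0.443 from edgeR, and 0.48 without replicate 3). DESeq2 called *Cfi* lower in IF + NaIO3 against AL + NaIO3 (log2 fold change -2.17, adjusted p = 0.0440). Without replicate 3 the value from edgeR there was -0.95. *Clu*, which encodes clusterin, an inhibitor of the membrane attack complex, had 1101, 1083 and 2124 CPM against 681.5 ± 27.1, and 617.3 ± 48.4 in IF + NaIO3. DESeq2 called *Clu* in AL + NaIO3 against AL + PBS and in IF + NaIO3 against AL + NaIO3 (log2 fold change 1.09 and -1.24, adjusted p = 0.00449 and 0.000480), and without replicate 3 the values from edgeR were 0.68 and -0.83. With all libraries *Cfd* of the alternative pathway (0.75), *C8g* of the terminal pathway (0.40) and *Cr1l* of the membrane regulators (0.75) had the largest log2 fold changes of their roles, with adjusted p from edgeR between 0.496 and 0.821. *C8g* was the only terminal pathway gene that was tested. Without replicate 3 the values were 1.09 for *Cfd*, 0.39 for *C8g* and 0.27 for *Cr1l*, and *Cd46* of the membrane regulators had 0.49. *Cfd* had 55, 3 and 13 counts in the AL + NaIO3 libraries, and replicate 1 alone was above the AL + PBS mean. *C8g* overlaps *Fbxw5*, which had up to 2511 counts. *Itgb2*, *Itgam*, *Clu*, *C1ra* and *C1s1* were chosen with their values in view.

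**Figure D5:**
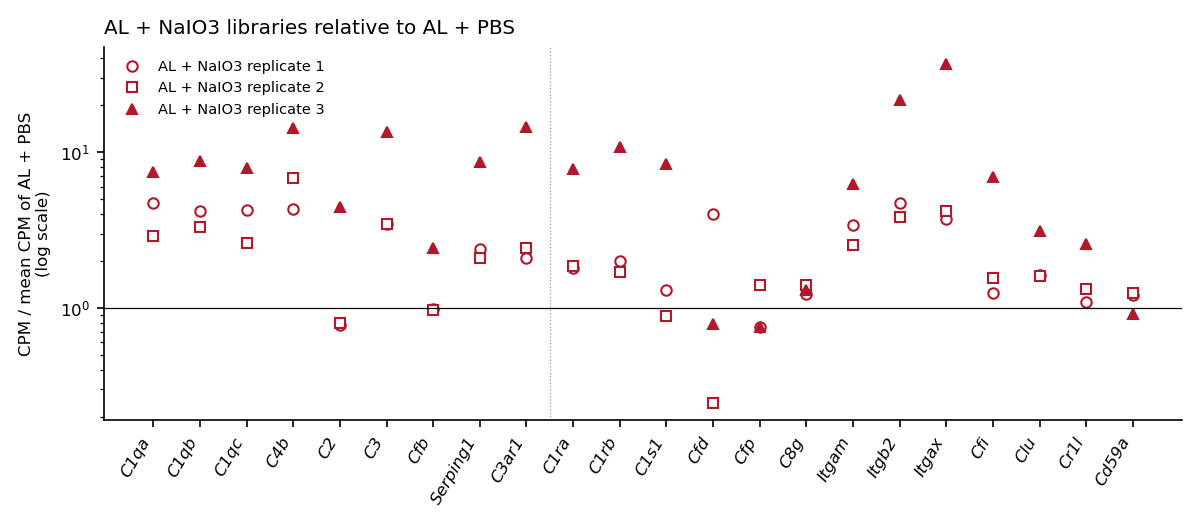
CPM of each AL + NaIO3 library divided by the mean CPM of AL + PBS (log scale), for the 9 genes left of the dotted line and 13 other complement genes right of it, with a line at 1. Among others the C1q chains, *C4b*, *C3*, *Itgam*, *Itgb2* and *Itgax* lie above 1 in all 3 libraries, while *C2*, *Cfb* and *C1s1* were well above 1 only in replicate 3.

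Properdin (*Cfp*), which stabilises the alternative pathway enzyme, was higher in fasted mice given saline. It had 19.4, 13.3 and 18.2 CPM in AL + PBS and 27.5, 24.5 and 34.8 CPM in IF + PBS, which did not overlap. DESeq2 called the difference (log2 fold change 0.77, adjusted p = 0.00548) and edgeR did not (adjusted p = 0.175). With NaIO3 it had 12.9, 23.8 and 12.9 CPM in AL mice and 26.7, 20.6 and 22.3 CPM in IF mice, which overlapped. The same 2 saline groups did not overlap in the sum of skeletal muscle markers, 89.1 to 195.7 CPM in AL + PBS and 13.9 to 62.6 in IF + PBS, or of stroma markers, 132.5 to 203.8 and 64.9 to 108.8. The sum of monocyte markers was also lower, 11.4 to 13.5 CPM in AL + PBS and 7.54 to 9.57 in IF + PBS. This came mostly from *Vcan* (10.3 to 11.6 against 6.35 to 8.26 CPM). The other monocyte markers overlapped, and in group means *Ly6c2* (0.173 against 0.320 CPM) and *Chil3* (0.0315 against 0.0653) were higher in IF + PBS. The photoreceptor, cornea, lens and erythrocyte sums were lower and the RPE sum was higher, each without overlap. The part of these cell types in the *Cfp* values was not tested. *Cfp* was chosen with its values in view.

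Levels of other cell types moved with these results. Monocyte markers summed to between 15.8 and 44.4 CPM in AL + NaIO3 and between 7.20 and 13.5 in the other libraries, with 3 of 5 markers without overlap against AL + PBS. Müller cell and astrocyte markers, among them *Gfap*, summed to between 6394 and 9836 CPM in AL + NaIO3 and between 4880 and 5715 elsewhere, with 5 of 8 higher without overlap and 1, *Glul*, lower without overlap (2097 to 2124 CPM against 2518 to 2842 in AL + PBS). The excess in this sum came mostly from *Apoe* (mean 2684 CPM in AL + NaIO3 against 1044 in AL + PBS) and *Clu* (1436 against 681.5). *Clu* is also in the wider complement list. Lymphocyte markers summed to between 4.17 and 11.9 CPM against 0.693 to 2.23 (4 of the 8 markers in the table without overlap), and neutrophil markers were at or under 1.93 CPM in every library. The stroma sums of AL + NaIO3 replicates 1 and 2, at 184.7 and 98.8 CPM, were in or below the range of AL + PBS, 132.5 to 203.8 CPM. Of 8 RPE markers 5 were lower without overlap, among them the visual cycle enzyme gene *Rpe65* at 48.5 ± 7.87 CPM in AL + NaIO3 and 119.6 ± 20.6 in AL + PBS (SD, n = 3), and 2 of 5 endothelial markers were higher. The pigment genes *Tyrp1* and *Pmel* of the same RPE list had 639.4 and 417.0 CPM in AL + NaIO3 replicate 3, against at most 51.2 CPM in AL + PBS, while replicates 1 and 2 had between 15.3 and 29.6 CPM. AL + NaIO3 replicate 2 had a cornea marker sum of 422.5 CPM, against at most 75.5 in the other libraries, and AL + PBS replicate 2 had a lens marker sum of 200.3 CPM. The part of these cell types in the complement values was not tested.

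The genes most like the C1q chains in pattern over the 12 libraries, among 15970, were *Fcgr1* (Pearson r = 0.98), *Crym* (0.98), *Ccl2* (0.98), *Psmb10* (0.98) and *Klrb1b* (0.98). Most like *C3* were *Unc93b1* (0.98), *Lyn* (0.98), *Nes* (0.97), *Hsd17b2* (0.97) and *Tnfrsf1a* (0.97), and most like *Serping1* were *S1pr3*, *B2m*, *Cd180*, *Rab32* and *Cav1* (0.96 to 0.97). These values describe log2 CPM over the 12 libraries and rest largely on those of AL + NaIO3. Within the other 9 libraries r with the C1q chains was 0.13 for *Fcgr1* and 0.87 for *Psmb10*, a subunit of the immunoproteasome.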

How the data were processed

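RNA-seq libraries of 12 mice were analysed (3 in each of 4 groups, assigned from the sample titles, with 0 columns left unassigned). The deposited counts are whole numbers of reads per gene that the authors did not normalise. The authors' deposited FPKM values divide by gene length and depth. The submitters' processing notes name HISAT2, StringTie, DESeq2 and edgeR. The counter, annotation and strand setting are not given in the sources used here, so reads of overlapping genes may be shared. The notes name GRCm39, but the gene positions in the files are those of GRCm38, which is used here. A deposited table of the authors' own fold changes and p-values was not used.

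Counts were fitted in R 4.3.3 with edgeR 4.0.16 (TMM factors, filterByExpr, quasi-likelihood test) on the 6 libraries compared. Adjustment was by the Benjamini-Hochberg method over all genes tested, and calls needed an adjusted p under 0.05 and a fold of at least 1.5 (for the interaction, on 12 libraries, the adjusted p alone). The code was tested on simulated counts. The alternatives were DESeq2 1.42.0, upper quartile scaling, no filter on low counts, at least 10 counts in each library, all 12 libraries in one fit, the replicate number as a block, and leaving out each library. For DESeq2 the percentages are of genes with an adjusted p. Totals were between 26364665 and 43046950 counts, and each of the 9 genes had at least 30 counts in each library.

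The genes and lists were chosen with earlier results of these data known. The genes named are the 9, the called genes of the wider complement list, the tested gene with the largest log2 fold change in AL + NaIO3 against AL + PBS in each role of that list, and the 5 genes most alike in pattern to C1q, *C3* and *Serping1* (log2 CPM with a pseudocount of 1). *C1s1* is outside this rule and was added with its values in view. The mice of a group are its replicates. One gene of the wider list enters its counts but is not reported here by name.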

Additional observations from a re-analysis of the deposited data

How the results depend on the processing

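The direction of the log2 fold change of all 9 genes held in AL + NaIO3 against AL + PBS, in IF + NaIO3 against AL + NaIO3 and in the interaction under DESeq2, upper quartile scaling, both filters, the fit of 12 libraries (not run for the interaction) and the replicate block. Calls did not hold. In AL + NaIO3 against AL + PBS, where edgeR called 0 of the 9, DESeq2 called 7, the fit of 12 libraries 6 and no filter on low counts 2 (*C1qa* and *C4b*, beside 0.0706% of all genes), and leaving out single libraries gave 0 to 6 (0% to 0.394% of all genes). In IF + NaIO3 against AL + NaIO3 DESeq2 called 7, the fit of 12 libraries 7, and leaving out single libraries 0 to 5 (0% to 0.445% of all genes). In the interaction DESeq2 called 5, no filter 1 (*C1qa*, beside 0.0476% of all genes), and leaving out single libraries 0 to 6 (0.0185% to 1.26% of all genes). Upper quartile scaling and at least 10 counts in each library called 0 in each of the 5 comparisons. In one direction they called at most 0.0641% and 0.0616% of all genes. Of the other complement genes, DESeq2 called 4, 5, 1 and 2 in AL + NaIO3 against AL + PBS, IF + NaIO3 against AL + NaIO3, IF + PBS against AL + PBS and the interaction (2.37%, 2.72%, 0.574% and 1.02% of all genes in the same direction), and the fit of 12 libraries 2 in each of the first pair. Leaving out single libraries called 0 to 1 of them in IF + NaIO3 against AL + NaIO3, in IF + PBS against AL + PBS (up to 1.06% of all genes called higher) and in the interaction. The cause of these differences was not tested.

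The median log2 fold change of the 9 ranged from 1.78 to 2.63 in AL + NaIO3 against AL + PBS, from -2.74 to -1.93 in IF + NaIO3 against AL + NaIO3 and from -2.88 to -1.87 in the interaction when single libraries were left out. Left-out libraries turned the sign of some genes: *C2* (-0.34 to 1.40) and *Cfb* (-0.027 to 0.78) in AL + NaIO3 against AL + PBS, and *Cfb* in the interaction (-0.76 to 0.037), each without AL + NaIO3 replicate 3. In IF + PBS against AL + PBS they did so for *C1qb* (-0.16 to 0.067), *C2* (-0.25 to 0.080), *C3* (-0.44 to 0.23) and *C4b* (-0.42 to 0.092), and in IF + NaIO3 against IF + PBS for *C1qb* (-0.12 to 0.23), *C3* (-0.67 to 0.0073), *C4b* (-0.063 to 0.58), *Cfb* (-0.15 to 0.16) and *Serping1* (-0.14 to 0.43).

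Groups share replicate numbers, but same-numbered libraries did not deviate together (correlations between -0.18 and 0.19 over the 4 comparisons), so the numbers were not taken as pairs. With the replicate block edgeR called 4 of the 9 in AL + NaIO3 against AL + PBS (the C1q chains and *C4b*, where it called 0.179% of all genes), 3 in IF + NaIO3 against AL + NaIO3 (*C1qa*, *C1qb* and *C3*, also 0.179% of all genes) and 0 in the other 3 comparisons (at most 0.0501% of all genes).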
